A study of Ricinus communis with 18 samples.

Results

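The root systems of castor (Ricinus communis, the oilseed that makes castor oil and ricin) that received no treatment are described here across 3 time points. The members are 9 of the 18 libraries of the study, chosen by their labels as control roots incubated without PEG-6000: 3 libraries at 3 days, 3 at 7 days and 3 at 11 days. PEG-6000 (polyethylene glycol) is an osmotic agent that lowers the water available to roots, and the other 9 libraries, labelled as under PEG-6000 or after its removal, were not used in any test. All 9 libraries hold mRNA from whole root systems, so root tips, mature root and lateral roots are mixed. The labels give neither cultivar, plant age nor growth medium, and nothing says that the libraries of a day came from separate plants, so every p-value measures only how far these samples differ among themselves, and that spread may be technical.

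As background, a root takes up water through aquaporins of the plasma membrane and the vacuole, takes up nitrate and metals through transporters of its outer cell layers, and seals its inner layers with the Casparian strip, a lignin band set by CASP proteins. Its tip grows by cell division and by loosening of the wall with expansins and xyloglucan endotransglucosylases, while older parts strengthen the wall with cellulose, lignin and cross-linked extensins. Because an untreated root keeps growing, its transcripts can differ between days without any stress, and such differences are what the comparison among 3, 7 and 11 days addresses.

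The deposited table lists 21332 genes, of which 2477 had no count in any of the 9 libraries. Library totals ran from 6607760 to 9952762 counts, with 17209 to 17750 genes detected in each library. Levels are FPKM computed here (fragments per kilobase of gene, scaled to library size), a scale on which genes of different length can be compared. Averaged over the 9 libraries, 14907 genes reached 1 FPKM, 7598 reached 10 FPKM, 1187 reached 100 FPKM and 81 reached 1000 FPKM. Product names are those of related proteins given by the authors, mostly from Jatropha curcas, a relative of castor.

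The root label was checked against marker genes. SHORT-ROOT (ncbi_8283369), a regulator of root endodermis identity in Arabidopsis, had 27.8, 40.2 and 45.8 FPKM at 3 days, 40.2, 32.6 and 44.4 FPKM at 7 days and 31.7, 35.5 and 26.8 FPKM at 11 days. LATERAL ROOT PRIMORDIUM 1 (ncbi_8268536), a marker of young lateral roots in Arabidopsis, had 47.1 to 65.5 FPKM over the 9 libraries. Of 13 root identity genes in the table, 7 passed the filter on low counts and 2 had no count in any of the 9 libraries. Summed over the 13, the level was 171 to 204 FPKM, the narrowest range of the groups drawn in the plot of summed levels. ROOT HAIR DEFECTIVE 3-like, given below, was among the most abundant of the 13. Casparian strip membrane proteins were counted in another group and varied more between libraries, as given below. Of 48 seed reserve and ricin family genes, 10 passed the filter on low counts, and the whole group summed to 46.8 to 98.7 FPKM. The 62 photosynthesis genes, markers of green tissue, summed to 461 to 1256 FPKM, and their most abundant member, a chlorophyll a-b binding protein of LHCII type 1 (ncbi_8264152), had 41.9, 492 and 221 FPKM at 3 days, 231, 73.7 and 161 FPKM at 7 days and 176, 392 and 129.7 FPKM at 11 days. Library 2 of day 3 held the highest summed level of these green markers, and their part in the results was not tested.

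Libraries of the same day were about as alike as libraries of different days. The Pearson correlation of log2 CPM (counts scaled to library size) across genes (genes are not independent replicates, so this is a description) was 0.864 to 0.953 in the 9 pairs of the same day, with a median of 0.937. In the 27 pairs of different days it was 0.849 to 0.980, with a median of 0.929. The most alike pair was library 3 of day 7 and library 3 of day 3 (r = 0.980, with 4.04% of genes at least 2-fold apart), and the next was library 2 of day 7 and library 1 of day 3 (r = 0.966, 7.47% of genes). The least alike pair within a day was libraries 1 and 2 of day 3 (r = 0.864), with 31.9% of genes at least 2-fold apart. No pair was closer than counting noise allows, since the smallest chi-square per gene was 10.1.

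**Figure D1:**
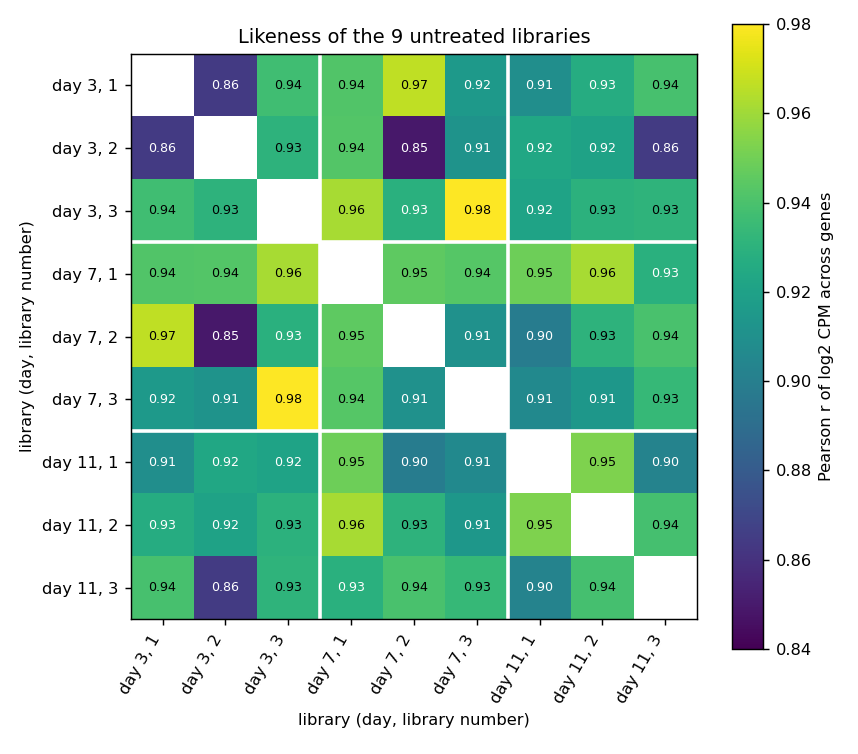
Pearson r of log2 CPM across genes for each pair of the 9 untreated libraries, ordered by day (3, 7 and 11) and library number; white lines separate days. The brightest cells, 0.98 and 0.97, join a library of day 7 with a library of day 3 and lie outside the blocks of single days, while libraries 1 and 2 of day 3 share only 0.86.

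Library 2 of day 3 stood farthest from the rest. In it 19.6% of the tested genes were at least 2-fold from the mean of the other 8 libraries, against 2.98% in library 1 of day 7, the lowest of the 9. It lay at 92.6 on the first principal component, which held 37.9% of the variance, and library 2 of day 7 lay at the other end at -61.7. Gene length moved with this difference: the 1559 shortest genes had a median deviation of -0.36 (log2) in library 2 of day 3 and 0.36 in library 3 of day 11, while the 1559 longest had 0.38 in library 2 of day 3 and -0.32 in library 3 of day 11. Between days the same measure was smaller, with a median log2 ratio of 11 days over 3 days of 0.18 in the shortest genes and -0.10 in the longest, and of 7 days over 3 days of 0.17 in the shortest and -0.21 in the longest. The part of gene length in the results was not tested.

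The most abundant transcripts encoded wall glycoproteins, enzymes of sugar breakdown and water channels. The 25 genes of highest mean FPKM held a mean of 11.6% of all counts, and the 25 largest genes by count in each library held 11.1% to 14.9%. An extensin-2-like gene (ncbi_107262355), whose product is a hydroxyproline-rich glycoprotein of the cell wall, came first with 21165, 10469.5 and 17620.1 FPKM at 3 days, 9805, 19541 and 14719.5 FPKM at 7 days and 10081, 7774 and 8183 FPKM at 11 days. The 3 libraries of day 11 all lay below the 3 of day 3 for this gene, while those of day 7 spanned both. Its log2 ratio of 11 over 3 days was -0.92 ± 0.38 (SE; n = 3 libraries each), and its adjusted p in edgeR's trend test was 0.862.

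Other wall and secreted proteins stood close behind. A proline-rich extensin-like gene named after EPR1 (ncbi_8270508) had 5542, 2970.0 and 5964 FPKM at 3 days, 4896, 6061 and 4577 FPKM at 7 days and 1568, 2886 and 3199 FPKM at 11 days. A 14 kDa proline-rich protein similar to DC2.15 of carrot (ncbi_8273012) averaged 5869 FPKM but ran from 535 to 12593 FPKM, with both extremes among the libraries of day 3. A secreted protein of the lipid-transfer and storage albumin fold (ncbi_8270583) averaged 4801 FPKM, and a non-specific lipid transfer protein-like gene (ncbi_8259403) averaged 2509.6 FPKM. Peroxidase 12-like (ncbi_8283187), of the secreted class III peroxidases that cross-link wall polymers, had 2321, 3025 and 3801 FPKM at 11 days, against 2264, 1929 and 2128 FPKM at 3 days; the groups did not overlap, and the adjusted p was 0.933.

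Glycolysis and ethanol fermentation had transcripts among the most abundant in these untreated roots. Glyceraldehyde-3-phosphate dehydrogenase (ncbi_8266350), a central enzyme of glycolysis, was the second most abundant transcript with 5419, 10456 and 10704 FPKM at 3 days, 8973, 9046 and 9681 FPKM at 7 days and 7119, 8679.8 and 9507 FPKM at 11 days. Alcohol dehydrogenase 1 (ncbi_8277844), which ends ethanol fermentation and is known as a gene of oxygen-poor roots, had 2364, 7679.7 and 5859 FPKM at 3 days, 5425, 4318 and 5413 FPKM at 7 days and 5312, 6007 and 5969 FPKM at 11 days. Cytosolic fructose-bisphosphate aldolase (ncbi_8288389) averaged 3246 FPKM and fructokinase (ncbi_8261709) 2470.3 FPKM. Library 1 of day 3 was the lowest of the 9 for alcohol dehydrogenase 1 and for glyceraldehyde-3-phosphate dehydrogenase. The 89 listed genes of glycolysis and fermentation took 3.45% to 5.44% of all counts.

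Water channels made up 6 of the 25 most abundant genes. An aquaporin named after a Hevea entry (ncbi_8270441) averaged 3823 FPKM and ran from 2902 to 4978 FPKM, while PIP2-4 (ncbi_8264070) ran from 2042 to 3323 FPKM. The tonoplast channel TIP2-1 (ncbi_8273814) had 2911, 1664 and 1858 FPKM at 3 days, 2587, 5383 and 1309 FPKM at 7 days and 1114, 3866 and 2325 FPKM at 11 days. Its highest value was in library 2 of day 7 and its lowest in library 1 of day 11. TIP1-1-like (ncbi_8286116), outside the first 25, varied more, with 4437, 556 and 1886 FPKM at 3 days, 1108, 4356 and 1356 FPKM at 7 days and 722, 3222 and 2437 FPKM at 11 days. All 34 aquaporin genes together summed to 13917 to 33475 FPKM, with library 2 of day 7 at the top and library 1 of day 11 at the bottom.

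Several further abundant transcripts serve nutrient uptake, metal binding and protein turnover. The high-affinity nitrate transporter 3.1-like gene (ncbi_8278271), whose Arabidopsis relative is the partner protein of the NRT2 nitrate carriers, had 2598, 3117 and 3673 FPKM at 3 days, 3097, 4091 and 3402 FPKM at 7 days and 1998, 2779 and 3508 FPKM at 11 days. A high-affinity nitrate transporter 2.1-like gene (ncbi_8275206), named after the NRT2 carriers, ran at 158 to 780.3 FPKM. Metallothionein 1a (ncbi_8278081), a small metal-binding protein, averaged 3921 FPKM. The translationally controlled tumor-like protein (ncbi_8278734) averaged 6072 FPKM, a serine carboxypeptidase-like 17 (ncbi_8261744) 4058 FPKM, ubiquitin-conjugating enzyme E2 28 (ncbi_8267121) 3456 FPKM and elongation factor 1-alpha (ncbi_8280641) 2556 FPKM. The stem-specific protein TSJT1 (ncbi_8271586) averaged 4137 FPKM and the auxin-induced ARG2-like gene (ncbi_8259886) 3534 FPKM. Pathogenesis-related protein 10.5 (ncbi_8280151), of a family of small intracellular defence proteins, had 2214, 2217 and 2587 FPKM at 3 days, 2259, 2987 and 2924 FPKM at 7 days and 2088, 3305 and 5164 FPKM at 11 days. None of the 25 had an adjusted p below 0.05 in any of the 5 edgeR tests.

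**Figure D2:**
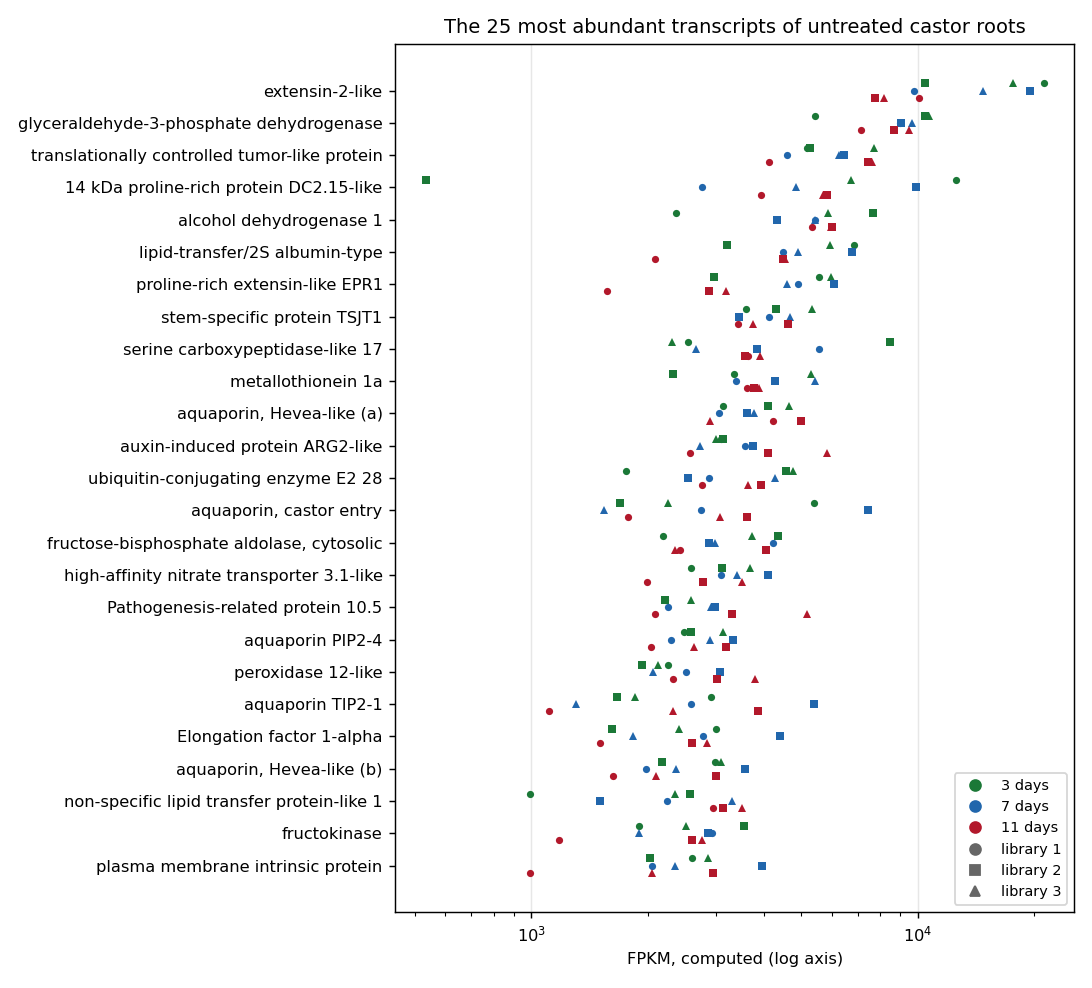
Computed FPKM (log axis) of the 25 transcripts of highest mean level in untreated castor roots; each point is 1 library, coloured by day and shaped by library number. Extensin-2-like lies at the top at 7774 to 21165 FPKM, and the DC2.15-like gene has the widest spread, from 535 to 12593 FPKM within day 3 alone.

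Summed over gene groups, ribosomal protein genes had the highest level of the groups listed. The 168 cytosolic ribosomal protein genes took 2.42% to 5.82% of all counts and summed to 29107 to 75607 FPKM. The lowest of these sums was in library 2 of day 3 and the highest in library 2 of day 7. Extensins and other proline-rich wall proteins (72 genes, a list added after seeing values) summed to 19836 to 57964 FPKM, again lowest in library 2 of day 3. By contrast the 65 class III peroxidase genes stayed within 7969.9 to 11125 FPKM and the 52 glutathione S-transferase genes within 3114 to 4406 FPKM. In bulk RNA, fewer cells of a type and less RNA per cell cannot be told apart.

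**Figure D3:**
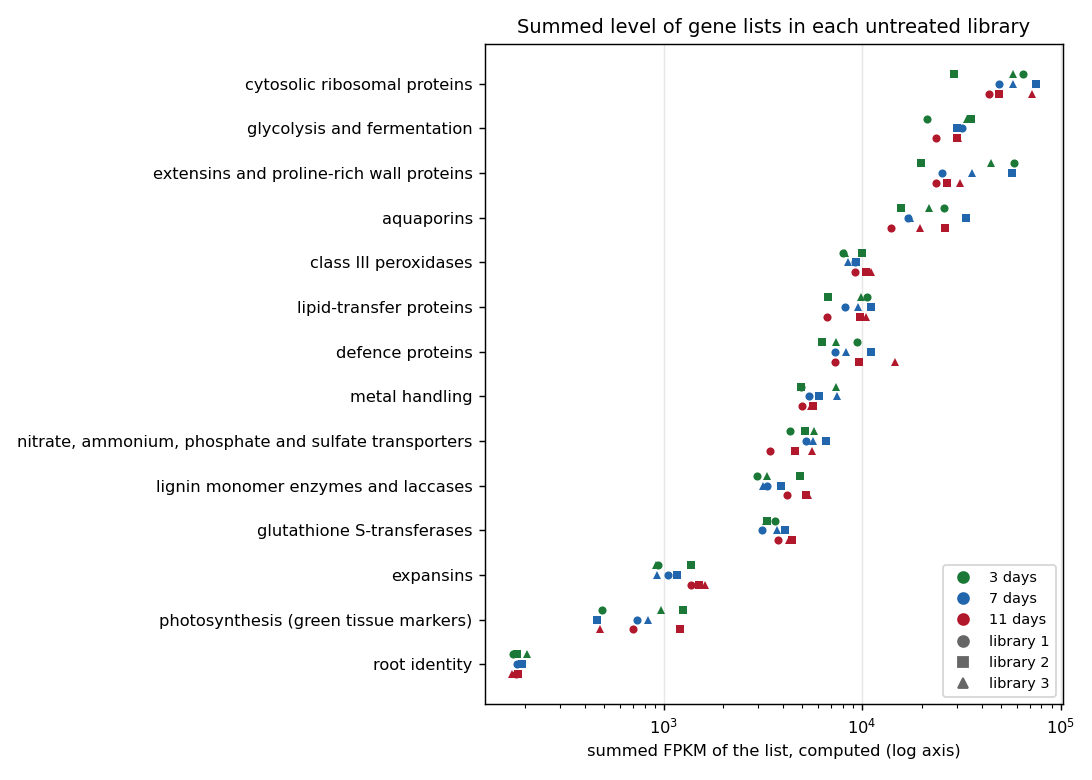
Summed computed FPKM (log axis) of 14 gene groups in each of the 9 untreated libraries, coloured by day and shaped by library number. Ribosomal protein genes span 29107 to 75607 FPKM between libraries, and of the groups drawn only expansins have all 3 libraries of day 11 above the other 6.

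edgeR called no gene different among the 3 days, while DESeq2, given next, called some. edgeR's quasi-likelihood test was run on 15585 genes (73.1% of the table), and at an adjusted p below 0.05 it called 0 genes (0%) in each of 5 tests: the overall test among days, the trend with day, 7 against 3 days, 11 against 7 days, and the bend at 7 days (the level of day 7 against the average of days 3 and 11). The smallest adjusted p was 0.462 in the overall test, 0.3997 for the trend, 1.00 for 7 against 3 days, 0.378 for 11 against 7 days and 0.999 for the bend. At an unadjusted p below 0.05, the overall test held 597 genes (3.83% of those tested) and the trend 852 genes (5.47%), of which 392 were higher at 11 days (2.52%) and 460 lower (2.95%). The contrast of 11 against 7 days held 808 genes (5.18%), the bend 314 (2.01%) and 7 against 3 days 123 (0.789%).

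A second tool gave another count. DESeq2, on the same genes, called 60 for the trend (0.385%; 23 higher and 37 lower at 11 days), 67 in the overall test (0.43%), 53 for 11 against 7 days (0.34%), and 0 for 7 against 3 days and for the bend, where 161 and 383 genes had an unadjusted p below 0.05. Of the 60 trend genes, all 60 had 11-day libraries that did not overlap those of 3 days, and in 51 they overlapped neither those of 3 nor those of 7 days. The genes were called on these same libraries, so the lack of overlap between 3 and 11 days adds no support. Over all tested genes, 693 were higher (4.45%) and 848 lower (5.44%) at 11 days than at 3 days without overlap, and 229 (1.47%) were higher and 458 (2.94%) lower than at both other days. By size alone, 602 genes (3.86%) were at least 2-fold higher and 387 (2.48%) at least 2-fold lower at 11 days than at 3 days. limma on log2(FPKM + 1) called 0 genes in each of the 5 tests, with 919 genes for the trend at an unadjusted p below 0.05.

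The precision of 3 libraries a day bounds what these counts can show. The 95% interval of the log2 ratio of 11 over 3 days had a median half-width of 0.85, and 0.55 to 1.55 from the 10% to the 90% quantile of genes. The whole interval lay within 2-fold in either direction for 5791 genes (37.2%), and for the remaining genes it reached 2-fold or beyond in at least 1 direction. The within-day SD of log2 CPM had a median of 0.46, and differences between day means held a median of 18.0% of a gene's variance among the 9 libraries. Any split of 9 libraries into 3 groups takes up some variance, so this share alone does not show an effect of day. Single libraries moved the counts at an unadjusted p below 0.05: the trend held 1373 genes without library 1 of day 3 and 528 without library 3 of day 3, and the overall test 357 without library 2 of day 11. The contrast of 11 against 7 days held 517 genes without library 2 and 1230 without library 3 of day 11. The contrast of 7 against 3 days held 573 without library 1 of day 3, 236 without library 3 of day 3, 69 without library 2 of day 7 and 236 without library 3 of day 7, and the bend 191 without library 2 of day 7 and 577 without library 3 of day 11.

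The 5 genes of smallest p in the overall test shared 1 shape, in which days 3 and 7 were alike and day 11 stood apart. The oleosin 1-like gene (ncbi_8264538), whose product coats lipid droplets, had 22.2, 25.99 and 40.9 FPKM at 3 days, 20.8, 20.5 and 33.1 FPKM at 7 days and 5.32, 6.22 and 4.53 FPKM at 11 days. The 3 libraries of day 11 lay below the 6 earlier ones, with a log2 ratio of 11 over 3 days of -2.47 ± 0.34 (SE) and an edgeR adjusted p of 0.462 in the overall test. Cytochrome P450 71A26-like (ncbi_8278263), of a large family of oxidising enzymes, had 8.34, 8.46 and 7.56 FPKM at 3 days, 8.497, 6.81 and 7.22 FPKM at 7 days and 2.72, 1.57 and 1.82 FPKM at 11 days, with a log2 ratio of -1.99 ± 0.30. A second gene of the same name (ncbi_8278264) did not share the shape, with 40.2, 101 and 57.1 FPKM at 3 days, 112, 48.99 and 55.5 FPKM at 7 days and 102, 68.2 and 46.6 FPKM at 11 days.

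The other 3 of these 5 genes were highest at 11 days. Caffeoyl-CoA O-methyltransferase 1 (ncbi_8288340), an enzyme of lignin monomer synthesis, had 209, 252 and 189.9 FPKM at 3 days, 187, 306 and 285 FPKM at 7 days and 644, 728 and 988 FPKM at 11 days, a log2 ratio of 1.86 ± 0.29. Expansin-like B1 (ncbi_8263702), named as a relative of the expansins, had 5.18, 4.85 and 3.74 FPKM at 3 days, 3.49, 4.28 and 2.16 FPKM at 7 days and 12.1, 17.6 and 26.1 FPKM at 11 days, a log2 ratio of 2.02 ± 0.38. Another, more abundant gene of that name (ncbi_8269021) had 88.2, 594.7 and 240.2 FPKM at 3 days and 194.9, 77.6 and 279.6 FPKM at 7 days. At 11 days this second gene had 492.9, 541.5 and 694.0 FPKM, so days 3 and 11 overlapped. CONSTANS-LIKE 1 (ncbi_8282940), a zinc finger transcription factor, had 17.2, 19.1 and 13.1 FPKM at 3 days, 16.8, 15.3 and 12.8 FPKM at 7 days and 34.4, 39.4 and 44.2 FPKM at 11 days, a log2 ratio of 1.25 ± 0.24. For all 5 the adjusted p in the overall test was 0.462 to 0.464 by edgeR. In the same test DESeq2 gave them adjusted p-values of 4.85e-06, 3.85e-06, 3.20e-07, 3.85e-06 and 3.10e-05, in the order named. For the trend, DESeq2's adjusted p-values were 2.49e-06, 5.19e-06, 2.92e-06, 0.00175 and 0.00175 in the same order. When each of the 9 libraries was left out in turn, the log2 ratio ran from -2.65 to -2.14 for the oleosin and from 1.67 to 2.01 for the methyltransferase.

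**Figure D4:**
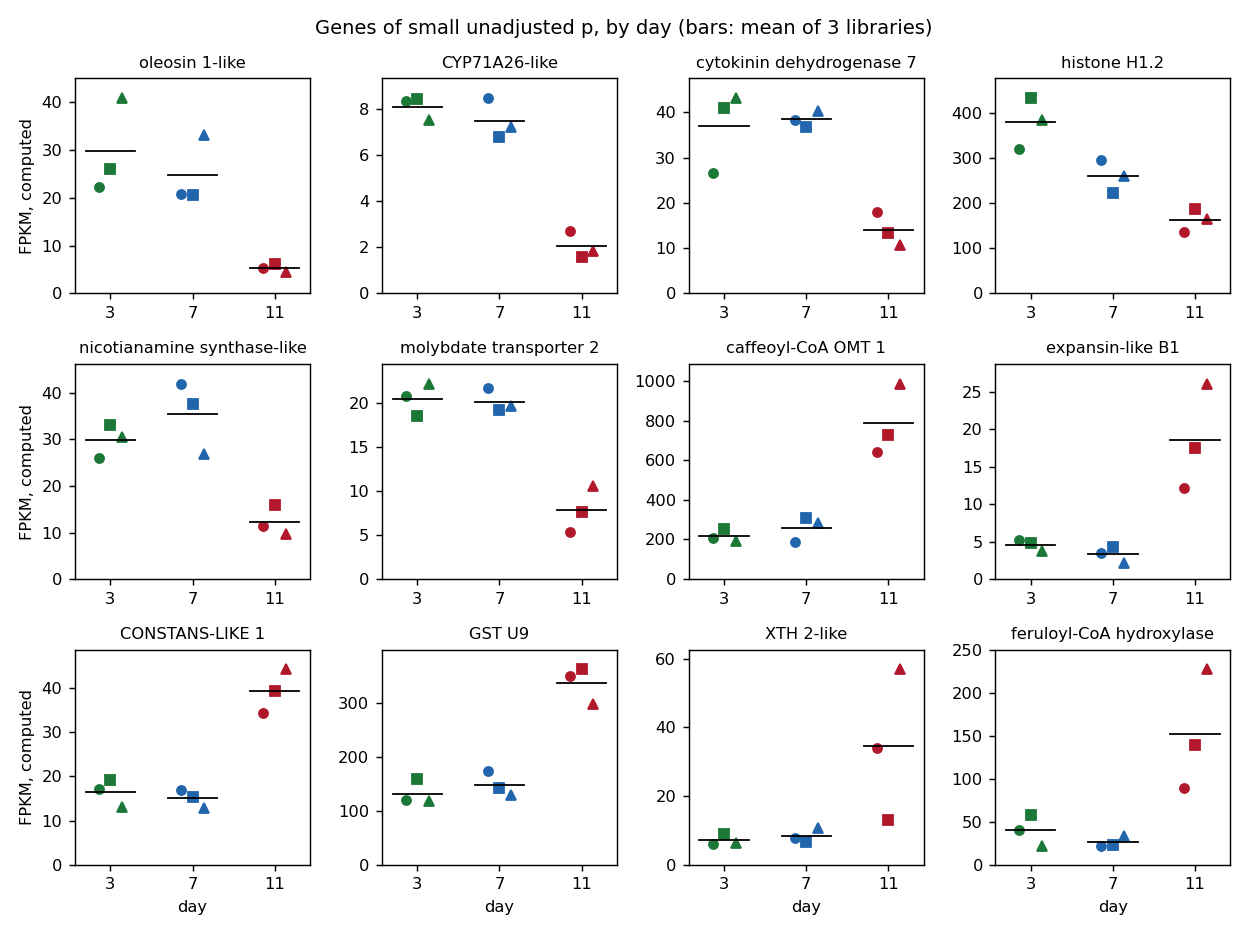
Computed FPKM (linear axes from 0) of 12 genes of small unadjusted p in each of the 9 untreated libraries by day; shapes mark library numbers and bars the mean of 3 libraries. In each panel the 3 libraries of day 11 lie outside the range of the 6 earlier ones, below it in the first 6 panels and above it in the last 6. All 12 belong to a set that required this separation and was chosen after values were seen, so the separation is no result. Of all tested genes, 1.47% lay above and 2.94% below both earlier days without overlap. None of the 12 has an edgeR adjusted p below 0.05.

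The genes described next were chosen after their values were seen, as the 40 of smallest trend p with a described product, at least 5 FPKM in a day, and day 11 libraries that overlapped neither earlier day. They include the 5 above and carry no support of their own. Their adjusted p ran from 0.3997 to 0.530 by edgeR, and all 40 were below 0.05 by DESeq2. Those higher at 11 days come first, and no theme among the 40 was tested. Feruloyl CoA ortho-hydroxylase 1-like (ncbi_8282978), whose Arabidopsis relative makes coumarins that roots release, had 40.7, 58.2 and 22.3 FPKM at 3 days, 22.5, 23.5 and 33.01 FPKM at 7 days and 89.5, 139 and 228 FPKM at 11 days. Glutathione S-transferase U9 (ncbi_8277424), of a family that joins glutathione to reactive compounds, had 119.7, 158 and 118 FPKM at 3 days, 174, 141 and 128 FPKM at 7 days and 349, 361 and 297 FPKM at 11 days. Glutathione S-transferase U7-like (ncbi_8287931) averaged 165 ± 25.8 FPKM at 11 days, against 44.4 ± 25.3 FPKM at 3 days (SD, n = 3 each). The 3 values of day 11 lay above the 6 earlier ones in each of these genes.

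Further genes were also higher at 11 days. Xyloglucan endotransglucosylase/hydrolase 2-like (ncbi_8277812), which cuts and rejoins xyloglucan chains of the wall, had 5.96, 9.03 and 6.34 FPKM at 3 days, 7.81, 6.66 and 10.6 FPKM at 7 days and 34.1, 12.9 and 56.9 FPKM at 11 days. An amino acid transporter family gene (ncbi_8259506) averaged 2.38 ± 1.398 FPKM at 3 days, 9.399 ± 7.11 FPKM at 7 days and 24.5 ± 5.72 FPKM at 11 days (SD, n = 3 each), the largest ratio of these 40 with a log2 of 3.35 ± 0.65. The NRT1/PTR family 2.7-like transporter gene (ncbi_8289754) averaged 9.901 ± 4.002 FPKM at 11 days, against 3.25 ± 0.511 FPKM at 3 days. A chloroplast omega-3 fatty acid desaturase (ncbi_8265360), which makes trienoic fatty acids, averaged 23.9 ± 1.43 FPKM at 11 days, against 10.4 ± 3.11 FPKM at 3 days. A flavonol 3-sulfotransferase (ncbi_8269482) averaged 38.1 ± 5.004 FPKM at 11 days, against 10.9 ± 4.97 FPKM at 3 days. The averages of day 7 for the last 3 were 4.47 ± 1.76, 8.03 ± 0.776 and 10.6 ± 2.42 FPKM.

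The next genes were lower at 11 days. Cytokinin dehydrogenase 7 (ncbi_8258580), which breaks down cytokinins, had 26.5, 40.9 and 43.2 FPKM at 3 days, 38.2, 36.8 and 40.3 FPKM at 7 days and 17.98, 13.4 and 10.7 FPKM at 11 days. The DELLA protein SLR1-like gene (ncbi_8276206), of the repressors that gibberellin removes, had 25.3, 22.4 and 38.3 FPKM at 3 days, 16.7, 27.3 and 31.04 FPKM at 7 days and 4.55, 4.61 and 13.3 FPKM at 11 days. Linker histone H1.2 (ncbi_8269076) had 321, 434 and 384 FPKM at 3 days, 296, 224 and 261 FPKM at 7 days and 136, 188 and 165 FPKM at 11 days, and its day 7 values lay between those of days 3 and 11 without overlap. Nicotianamine synthase-like (ncbi_8258799), which makes the metal chelator nicotianamine, had 26.1, 33.1 and 30.5 FPKM at 3 days, 41.98, 37.6 and 26.9 FPKM at 7 days and 11.4, 15.97 and 9.65 FPKM at 11 days. Molybdate transporter 2 (ncbi_8271363) averaged 20.5 ± 1.87 FPKM at 3 days, 20.2 ± 1.34 FPKM at 7 days and 7.82 ± 2.63 FPKM at 11 days (SD, n = 3 each). Aluminum sensitive 3 (ncbi_8283857), whose Arabidopsis relative is needed for aluminium tolerance, averaged 7.67 ± 2.53 FPKM at 11 days, against 33.1 ± 25.95 FPKM at 3 days.

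The lower genes also held enzymes of phenolic metabolism and others. MIZU-KUSSEI 1 (ncbi_8269965), needed for the bending of Arabidopsis roots toward water, had 65.1, 70.3 and 104 FPKM at 3 days, 57.6, 69.9 and 79.04 FPKM at 7 days and 20.8, 36.1 and 30.2 FPKM at 11 days. The subtilisin-like protease SBT1.7 (ncbi_8259353) averaged 34.7 ± 9.69 FPKM at 3 days, 35.7 ± 5.15 FPKM at 7 days and 11.4 ± 2.35 FPKM at 11 days. Thiamine thiazole synthase (ncbi_8280736), of vitamin B1 synthesis, averaged 142 ± 10.6 FPKM at 11 days, against 292 ± 56.3 FPKM at 3 days. Flavonol synthase (ncbi_8274085) averaged 6.196 ± 1.43 FPKM at 11 days, against 17.9 ± 2.27 FPKM at 3 days, and trans-resveratrol di-O-methyltransferase-like (ncbi_8281872) averaged 8.49 ± 2.32 FPKM at 11 days, against 24.6 ± 9.79 FPKM at 3 days. The 3-dehydrosphinganine reductase TSC10A-like gene (ncbi_8271593), of sphingolipid synthesis, averaged 13.997 ± 2.02 FPKM at 11 days, against 31.4 ± 2.596 FPKM at 3 days. All errors are SD of 3 libraries.

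Gene groups were counted next, and members named beyond the most abundant of a group were chosen after their values were seen, among those of small unadjusted p. Growth-related wall genes were split. At an unadjusted p below 0.05 in edgeR's trend test, 2.52% of all tested genes were higher and 2.95% lower at 11 days. Of 24 tested expansins, 4 were higher and 3 lower by this measure. DESeq2 called 0.148% of all tested genes higher for the trend and 0.237% lower. Among the expansins edgeR called 0 and DESeq2 called 2, both higher. Their median log2 ratio of 11 over 3 days was 0.48 (0.46 to 0.79 when each library was left out), beside 0.0032 for all tested genes. The summed expansin level was 939.6, 1367 and 916 FPKM at 3 days, 1048, 1172 and 929 FPKM at 7 days and 1376, 1507 and 1610.5 FPKM at 11 days. The 3 sums of day 11 lay above the other 6, and most of each came from 2 genes, expansin-like B1 (ncbi_8269021) at 493, 542 and 694 FPKM and expansin-like A2 (ncbi_8278145) at 451, 289.7 and 154 FPKM. Expansin-A8 (ncbi_8259547), among the 3 lower, had 19.1, 71.4 and 44.4 FPKM at 11 days, against 201, 47.3 and 158 FPKM at 3 days, and those ranges overlapped.

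Group counts here again stand beside 2.52% higher and 2.95% lower of all tested genes. Among xyloglucan endotransglucosylases, 3 were higher and 0 lower of 16 tested, with a median log2 ratio of 0.56 (0.22 to 1.1004 when each library was left out). Their most abundant member, protein 28 (ncbi_8272308), averaged 175 ± 9.16 FPKM at 3 days, 167 ± 19.2 FPKM at 7 days and 174 ± 61.8 FPKM at 11 days. Besides the gene above, a second 2-like copy (ncbi_8277813) had 8.32, 13.4 and 5.62 FPKM at 3 days, 10.4, 6.89 and 4.47 FPKM at 7 days and 43.5, 20.3 and 23.2 FPKM at 11 days; reads of near-identical copies may be split between them. Among 55 tested extensins and proline-rich wall proteins, 0 were higher and 7 lower, with a median of -0.31 (-0.52 to -0.042 when each library was left out). In cellulose synthases and xylem secondary wall genes, 0 were higher and 3 lower of 25 tested, with a median of -0.37 (-0.71 to 0.36 when each library was left out), positive without library 1 of day 3. Catalytic subunit 1 (ncbi_8259474), their most abundant member, had 146, 204 and 219.9 FPKM at 11 days, against 259.7, 250.2 and 236 FPKM at 3 days, without overlap. Cellulose synthase A catalytic subunit 3 (ncbi_8271836), of the complex that spins cellulose, had 76.97, 101 and 79.2 FPKM at 11 days, against 116, 163 and 142 FPKM at 3 days. Fasciclin-like arabinogalactan protein 12 (ncbi_8279895), a secondary wall protein in Arabidopsis, was listed at 0 in the 3 libraries of day 11, against 2.896, 1.45 and 2.12 FPKM at 3 days and 1.38, 0.7096 and 3.16 FPKM at 7 days; a second copy (ncbi_8279890) was also at 0 in the 3 libraries of day 11. Outside this group, WUSCHEL-related homeobox 4 (ncbi_8288579), a regulator of the cambium in Arabidopsis, had 7.26, 4.13 and 8.05 FPKM at 3 days, 3.81, 3.69 and 4.94 FPKM at 7 days and 2.39, 0.453 and 1.45 FPKM at 11 days.

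Lignin and barrier genes had members in both directions, beside 2.52% higher and 2.95% lower of all tested genes. Of 78 tested lignin monomer enzymes and laccases, 4 were higher and 3 lower, with a median of 0.15 (0.052 to 0.31 when each library was left out). Trans-cinnamate 4-monooxygenase (ncbi_8282005), an early step of the path, ran from 758 to 1692 FPKM with the days overlapping. Among 39 tested suberin and Casparian strip genes, 3 were higher and 1 lower, with a median of -0.0053 (-0.13 to 0.17 when each library was left out). The most abundant, CASP-like protein 1D1 (ncbi_8262392), ran from 279.8 to 545 FPKM. For 3 Casparian strip membrane proteins the libraries of a day were far apart: protein 1-like (ncbi_8269726) had 43.98, 2.71 and 12.1 FPKM at 3 days, 21.8, 42.6 and 11.9 FPKM at 7 days and 12.5, 70.2 and 76.2 FPKM at 11 days. Protein 3 (ncbi_8263304) had 27.4, 5.005 and 12.9 FPKM at 3 days, 17.3, 47.1 and 13.01 FPKM at 7 days and 13.02, 87.1 and 60.2 FPKM at 11 days. Protein 2 (ncbi_8269727) had 15.9, 0.949 and 6.501 FPKM at 3 days, 9.996, 24.6 and 10.8 FPKM at 7 days and 5.77, 47.7 and 52.5 FPKM at 11 days. In all 3 genes library 2 of day 3 was the lowest, while libraries 2 and 3 of day 11 were the highest and library 1 of day 11 lay among the low ones.

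Detoxification and defence genes had more higher than lower members, beside 2.52% higher and 2.95% lower of all tested genes. This difference in counts was not tested. Of 41 tested glutathione S-transferases, 5 were higher and 0 lower at an unadjusted p below 0.05 in edgeR's trend test. edgeR called 0 of the 41 and DESeq2 called 2, both higher, beside 0.148% of all tested genes called higher by DESeq2. The median of the 41 was 0.32 (0.28 to 0.44 when each library was left out). Of 101 tested defence proteins, 11 were higher and 2 lower, with a median of 0.067 (-0.062 to 0.47 when each library was left out). All but an MLP-like gene of the 11 were copies of the pathogenesis-related 10 and major allergen family, for which counts of single copies are uncertain. Pathogenesis-related protein 10.5 (ncbi_8275586) had 63.4, 72.1 and 50.3 FPKM at 3 days, 83.98, 97.4 and 66.2 FPKM at 7 days and 90.1, 203 and 205 FPKM at 11 days, and the STH-2 type (ncbi_8278791) had 24.8, 23.9 and 32.8 FPKM at 3 days, 35.5, 39.04 and 53.5 FPKM at 7 days and 46.3, 79.2 and 167 FPKM at 11 days. Library 3 of day 11 was the highest for both, and the summed defence level in it was 14624 FPKM, against 7259.5 FPKM in library 1 and 9669 FPKM in library 2 of the same day.

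Metal and ion transport genes had more lower than higher members, beside 2.52% higher and 2.95% lower of all tested genes. That difference in counts was not tested. Of 64 tested metal handling genes, 4 were higher and 9 lower, with a median of -0.12 (-0.32 to 0.012 when each library was left out). Zinc transporter 1-like (ncbi_8271810) had 25.8, 102 and 38.97 FPKM at 3 days, 28.7, 25.5 and 40.2 FPKM at 7 days and 15.4, 23.1 and 21.1 FPKM at 11 days. Metal transporter Nramp1 (ncbi_8259739), of a family that carries manganese and iron, had 24.1, 26.9 and 34.7 FPKM at 3 days, 24.3, 21.5 and 35.1 FPKM at 7 days and 18.4, 10.99 and 17.4 FPKM at 11 days. The iron uptake gene fe(2+) transport protein 1-like (ncbi_8264630) had 1.59, 1.502 and 0.413 FPKM at 11 days, against 0.486, 24.3 and 3.47 FPKM at 3 days, and its highest value was in library 2 of day 3. Ferritin-3 (ncbi_8263108), an iron store, was among the 4 higher ones with 20.2, 19.8 and 52.04 FPKM at 11 days, against 15.3, 2.41 and 15.7 FPKM at 3 days. Of 36 tested potassium and sodium transport genes, 0 were higher and 4 lower, with a median of -0.15 (-0.27 to -0.082 when each library was left out). K(+) efflux antiporter 4 (ncbi_8265074) had 20.1, 22.6 and 26.5 FPKM at 3 days, 20.9, 21.2 and 25.1 FPKM at 7 days and 15.4, 14.4 and 14.7 FPKM at 11 days.

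For nitrogen, phosphate and sulfate transport, 2 of 51 tested genes were higher and 3 lower, with a median of -0.067 (-0.17 to -0.0017 when each library was left out). Over all tested genes 2.52% were higher and 2.95% lower. A second high-affinity nitrate transporter 2.1-like gene (ncbi_8275209) had 32.1, 26.6 and 69.4 FPKM at 3 days, 46.98, 79.2 and 82.6 FPKM at 7 days and 18.9, 12.3 and 25.1 FPKM at 11 days. Among 24 tested aquaporins, 0 were higher and 3 lower, with a median of -0.017 (-0.20 to 0.16 when each library was left out). TIP1-3 (ncbi_8275924) had 456, 588 and 1454 FPKM at 3 days, 483, 543 and 1261 FPKM at 7 days and 313, 237 and 167 FPKM at 11 days, so that the 3 libraries of day 11 lay below the other 6 while library 3 of each earlier day was the highest of its day. TIP1-2-like (ncbi_8278126) had 19.8, 3.05 and 14.8 FPKM at 11 days, against 40.3, 50.5 and 61.98 FPKM at 3 days.

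Hormone genes gave small counts, beside 2.52% higher and 2.95% lower of all tested genes. Auxin transport and response had 6 higher and 4 lower of 80 tested, with a median of 0.089 (0.057 to 0.16 when each library was left out); the early auxin response gene AUX22 (ncbi_8271341) had 8.06, 3.99 and 3.95 FPKM at 3 days, 5.67, 12.6 and 2.21 FPKM at 7 days and 14.1, 29.9 and 27.1 FPKM at 11 days, and IAA4-like (ncbi_8280180) had 24.01, 11.5 and 12.001 FPKM at 3 days, 16.7, 21.5 and 10.6 FPKM at 7 days and 30.3, 49.3 and 40.3 FPKM at 11 days. Cytokinin genes had 0 higher and 3 lower of 30 tested, with a median of -0.043 (-0.15 to 0.13 when each library was left out), and the 3 were all cytokinin dehydrogenases: number 7 above, number 5 (ncbi_8275787) at 12.96 ± 1.297 FPKM at 11 days, against 30.1 ± 14.99 FPKM at 3 days, and a 1-like gene (ncbi_8259348) at 0.408 ± 0.1805 FPKM at 11 days, against 1.23 ± 0.282 FPKM at 3 days. Gibberellin genes had 1 higher and 2 lower of 31 tested, with a median of 0.10 (-0.16 to 0.37 when each library was left out). Gibberellin 20 oxidase 1 (ncbi_8258329), of gibberellin synthesis, had 1.71 ± 0.594 FPKM at 11 days, against 4.59 ± 2.33 FPKM at 3 days, and gibberellin 2-beta-dioxygenase 2 (ncbi_8267296), of gibberellin breakdown, had 8.65 ± 2.49 FPKM at 11 days, against 4.28 ± 1.03 FPKM at 3 days. Ethylene genes had 3 higher and 0 lower of 22 tested, and jasmonate genes 3 and 0 of 25 tested, with medians of 0.016 (-0.05 to 0.18 when each library was left out) and 0.18 (0.075 to 0.51 when each library was left out). Allene oxide cyclase 4 (ncbi_8269521), of jasmonate synthesis, had 6.35, 8.54 and 2.54 FPKM at 3 days, 6.15, 8.91 and 3.95 FPKM at 7 days and 10.1, 39.98 and 27.1 FPKM at 11 days. Of 35 tested abscisic acid genes, 0 had an unadjusted p below 0.05 in edgeR's trend test, with a median of 0.0073 (-0.067 to 0.16 when each library was left out); their summed level was 919 to 1476 FPKM.

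Groups of cell division and protein synthesis had few members of small p, beside 2.52% higher and 2.95% lower of all tested genes. Of 61 tested cell cycle and DNA replication genes, 1 was higher and 0 lower, with a median of 0.07 (0.03 to 0.43 when each library was left out). Mitotic cyclin-B (ncbi_8275475), which drives entry into division, was the most abundant at 119.5 to 455 FPKM. Of 42 tested histones, 0 were higher and 1 lower (the linker histone above), with a median of -0.0077 (-0.19 to 0.21 when each library was left out). Of 161 tested cytosolic ribosomal protein genes, 1 was higher and 0 lower, and the median of 0.14 (-0.15 to 0.41 when each library was left out) stands beside a range of sums from 29107 FPKM in library 2 of day 3 to 64993 FPKM in library 1 of the same day. Sucrose, starch and sugar transport genes had 0 of 46 and phloem genes 0 of 14 with an unadjusted p below 0.05 in edgeR's trend test. Sucrose synthase 1 (ncbi_8259046), which splits incoming sucrose, ran from 527 to 2875 FPKM. The ricin-agglutinin family, to which the seed toxin ricin belongs, held a gene (ncbi_8264860) with 1.09, 1.802 and 0.7902 FPKM at 3 days, 2.53, 6.47 and 0.481 FPKM at 7 days and 14.5, 11.2 and 5.71 FPKM at 11 days, and its most abundant member (ncbi_8271861) ran from 3.91 to 24.5 FPKM over the 9 libraries.

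Transcription factor families and the remaining groups complete the account. The counts stand beside 2.52% higher and 2.95% lower of all tested genes. With counts at an unadjusted p below 0.05 in edgeR's trend test and 0 called by edgeR throughout, NAC factors had 2 higher and 0 lower of 35 tested, WRKY factors 0 and 1 of 53, MYB factors 1 and 2 of 73, AP2/ERF factors 2 and 2 of 65, and bHLH factors 3 and 1 of 57. Their medians were 0.17 (0.054 to 0.41 when each library was left out) for NAC, -0.017 (-0.16 to 0.48 when each library was left out) for WRKY, 0.12 (0.039 to 0.30 when each library was left out) for MYB, 0.26 (0.0061 to 0.36 when each library was left out) for AP2/ERF and 0.30 (0.13 to 0.27 when each library was left out) for bHLH. The bHLH median lies outside its own range. Genes were filtered again without each library, so the tested members can change. Class III peroxidases had 4 higher and 1 lower of 49, lipid-transfer proteins 1 and 0 of 14, pectin-modifying enzymes 1 and 3 of 67, and cytochrome P450 genes 5 and 7 of 91. Medians were 0.31 (0.14 to 0.54 when each library was left out) for class III peroxidases, 0.22 (-0.26 to 0.47 when each library was left out) for lipid-transfer proteins, -0.016 (-0.23 to 0.32 when each library was left out) for pectin-modifying enzymes and -0.015 (-0.14 to 0.23 when each library was left out) for cytochrome P450 genes. Pectinesterase 2 (ncbi_8270597), which de-esterifies pectin, ran from 1037 to 2039 FPKM. Cytochrome P450 98A2 (ncbi_8277880), of the family that hydroxylates lignin precursors, ran from 386 to 1058 FPKM. For heat shock proteins and factors these counts were 2 and 4 of 56, for enzymes that remove reactive oxygen 0 and 1 of 31, for glycolysis and fermentation 1 and 2 of 76, for senescence and proteolysis 2 and 2 of 56, for circadian clock genes 2 and 1 of 30, and for photosynthesis genes 0 and 4 of 45. Medians of these were -0.13 (-0.20 to -0.015 when each library was left out) for heat shock genes, -0.03 (-0.27 to 0.0058 when each library was left out) for enzymes against reactive oxygen, -0.0094 (-0.072 to 0.014 when each library was left out) for glycolysis, 0.0045 (-0.093 to 0.10 when each library was left out) for senescence, -0.041 (-0.23 to 0.44 when each library was left out) for the clock and -0.16 (-0.60 to 0.083 when each library was left out) for photosynthesis. The summed clock level was 477 FPKM in library 1, 1209 FPKM in library 2 and 809 FPKM in library 3 of day 3, which hold both the lowest and the highest of the 9 libraries. For the trend, DESeq2 called 0.385% of all tested genes (0.148% higher and 0.237% lower at 11 days). It called 2 higher members each of the expansins, glutathione S-transferases and defence proteins, and 2 lower members of the cellulose and secondary wall genes. In the seed reserve group it called 1 higher and 1 lower. It called 1 higher member each of the xyloglucan endotransglucosylases, lignin enzymes, lipid-transfer proteins, clock genes and nitrogen, phosphate and sulfate transport genes. It called 1 lower member each of the histones, cytochrome P450 genes and root identity genes. The metal handling, potassium and sodium transport, cytokinin and gibberellin groups also held 1 lower member each. These differences in counts were not tested.

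The most abundant members of the groups not named so far are given by their range over the 9 libraries. Among transcription factors, MYB1R1 (ncbi_8258138) ran from 153 to 351 FPKM, WRKY65 (ncbi_8275169) from 138 to 278 FPKM, a NAC factor (ncbi_8275014) from 66.8 to 215 FPKM and bHLH144-like (ncbi_8264148) from 53.5 to 103 FPKM. Among hormone genes, abscisic acid 8'-hydroxylase 1-like (ncbi_8275341), which breaks down abscisic acid, ran from 101 to 306 FPKM. IAA9 (ncbi_8288710), a repressor of auxin response, ran from 156 to 298 FPKM, and LOG8 (ncbi_8274547), which activates cytokinins, from 25.7 to 64.8 FPKM. EIN3-binding F-box protein 1-like (ncbi_8275898), which limits ethylene signalling in Arabidopsis, ran from 246 to 559 FPKM. Allene oxide synthase (ncbi_8260919), of jasmonate synthesis, ran from 261 to 724 FPKM and ent-kaurene synthase-like (ncbi_8282989), of gibberellin synthesis, from 32.1 to 195 FPKM. The last of these had the widest range by ratio of the genes given here by range. Glutathione S-transferase TAU 19 (ncbi_8278055) ran from 530.1 to 1470.3 FPKM, and the dnaJ protein homolog (ncbi_8264458), a co-chaperone, from 720.4 to 1854 FPKM. Ribosomal protein L27A (ncbi_8278299) ran from 913 to 1911 FPKM and histone H3.3 (ncbi_8281684) from 259.8 to 569 FPKM. Potassium transporter 4 (ncbi_8273072) ran from 64.9 to 114 FPKM, PHLOEM PROTEIN 2-LIKE A9 (ncbi_8274799) from 14.8 to 53.7 FPKM and ROOT HAIR DEFECTIVE 3-like (ncbi_8266962) from 49.7 to 72.2 FPKM. A gene named after Autophagy-related 2 (ncbi_8271821), with an implied length of 1117 bases, was the most abundant of the senescence group. It averaged 799 ± 586 FPKM at 3 days, 673 ± 236 FPKM at 7 days and 1023 ± 182 FPKM at 11 days. None of these genes was called by edgeR.

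The contrast of 7 against 3 days held fewer genes at an unadjusted p below 0.05 than the trend did, and those with the smallest p, chosen after their values were seen, were modest in level. The ocs element-binding factor 1 gene (ncbi_8285748), a bZIP transcription factor, had 60.7, 81.3 and 76.3 FPKM at 7 days, against 35.5, 48.8 and 45.9 FPKM at 3 days. WRKY transcription factor 18-like (ncbi_8274191), of a family active in defence, had 18.7, 29.5 and 15.7 FPKM at 3 days, 10.5, 5.11 and 7.85 FPKM at 7 days and 17.8, 8.77 and 18.5 FPKM at 11 days. For the bend at 7 days, the defence gene activator PTI5-like (ncbi_8259177) had 15.6, 20.2 and 16.2 FPKM at 3 days, 10.8, 6.16 and 14.6 FPKM at 7 days and 23.2, 23.3 and 33.5 FPKM at 11 days. The 3 libraries of day 7 lay below the other 6 for PTI5-like, and over all tested genes 64 (0.411%) were higher and 40 (0.257%) lower at day 7 than at both other days without overlap. The contrasts of 7 and of 11 against 3 days share the libraries of day 3, and the test of their difference is the contrast of 11 against 7 days, with 0 genes called by edgeR.

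Single libraries often stood far apart in abundant genes, by a range over all 9 that mixes differences within days with those between days. Of 586 genes with a mean of at least 200 FPKM, the ratio of the highest to the lowest of the 9 libraries had a median of 2.73 and exceeded 10-fold in 19 genes (3.24%), while 118 (20.1%) stayed within 2-fold. The genes of widest spread within days, chosen after their values were seen, held several copies of DC2.15-like proline-rich proteins. Such a copy (ncbi_8273005) had 1529, 7.88 and 78.5 FPKM at 3 days, 287, 2558 and 42.5 FPKM at 7 days and 949, 723 and 1099 FPKM at 11 days. The 36.4 kDa proline-rich protein gene (ncbi_8272217) had 3409, 144 and 3319 FPKM at 3 days, 659.8, 3152 and 2445 FPKM at 7 days and 513, 1262 and 1613 FPKM at 11 days. Both were lowest in library 2 of day 3 among all 9 libraries. Cytosolic ascorbate peroxidase (ncbi_8261021), which removes hydrogen peroxide, had 1985, 436 and 1628 FPKM at 3 days, 983, 2277 and 1411 FPKM at 7 days and 764, 1549 and 1691 FPKM at 11 days and was lowest in the same library.

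Other genes were highest in that library. ERF073 (ncbi_8259910), named after an Arabidopsis factor of low-oxygen responses, had 181, 1192 and 549 FPKM at 3 days, 706, 169 and 513 FPKM at 7 days and 452, 734 and 375 FPKM at 11 days. GIGANTEA (ncbi_8283208), of the circadian clock, had 128, 432 and 257 FPKM at 3 days, 225, 139.7 and 242 FPKM at 7 days and 295, 237 and 151 FPKM at 11 days. A TSJT1-like gene (ncbi_8279478) had 156, 1059 and 161 FPKM at 3 days, 601, 204 and 174 FPKM at 7 days and 119.5, 483 and 511 FPKM at 11 days. In these 3 genes library 1 of day 3 was among the lowest values, so that both extremes of day 3 came from libraries 1 and 2, the least alike pair within that day.

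A further set was highest in library 3 of each day. Mitochondrial uncoupling protein 5 (ncbi_8268397), a carrier of the inner membrane, had 338, 45.1 and 383 FPKM at 3 days, 60.2, 84.1 and 336 FPKM at 7 days and 38.7, 51.4 and 680.5 FPKM at 11 days. EXORDIUM-like (ncbi_8281671), of a family tied to cell expansion in Arabidopsis, had 279.6, 94.2 and 359 FPKM at 3 days, 91.7, 122 and 378 FPKM at 7 days and 127, 84.6 and 695 FPKM at 11 days. Ethylene-responsive transcription factor 4 (ncbi_8258437) had 181, 87.3 and 233 FPKM at 3 days, 42.8, 47.1 and 251 FPKM at 7 days and 54.1, 49.2 and 409 FPKM at 11 days. Library 3 held the highest value of each day in these 3 genes, and library 1 of day 3 was the next highest of its day.

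**Figure D5:**
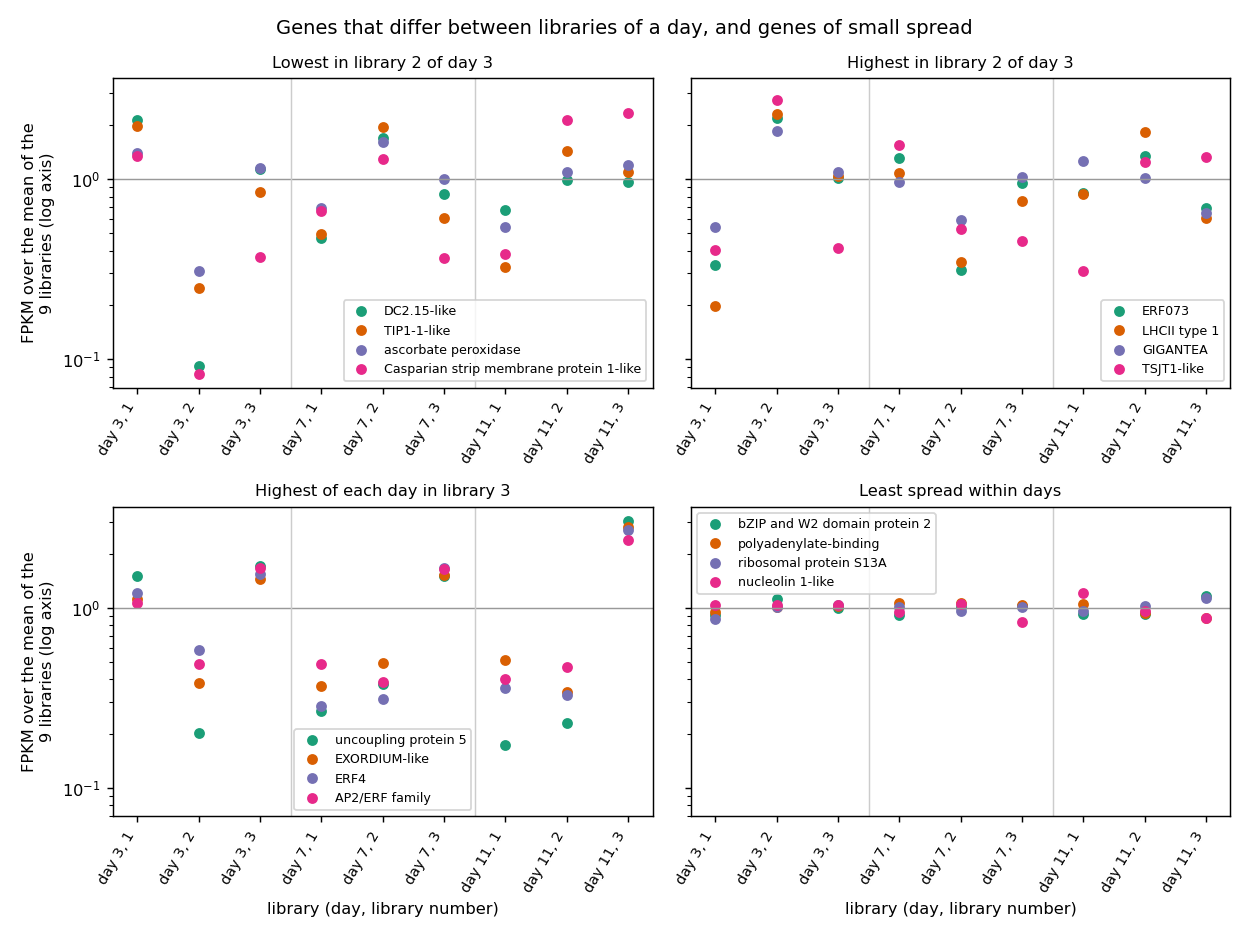
FPKM over the mean of the 9 untreated libraries (log axis, points for 4 genes a panel) against the library, ordered by day. The first panel shows genes lowest in library 2 of day 3 (the DC2.15-like gene at 535 FPKM there, against 12593 FPKM in library 1), the next panels genes highest in library 2 of day 3 or in library 3 of each day, and the last panel 4 genes of small spread.

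Genes of small spread give a measure of how even the libraries can be. Polyadenylate-binding family protein (ncbi_8288172), which binds mRNA tails, had 269, 287 and 294 FPKM at 3 days, 302, 302 and 296 FPKM at 7 days and 299, 267 and 249 FPKM at 11 days. Ribosomal protein S13A (ncbi_8270613) ran from 222 to 291 FPKM and a basic leucine zipper and W2 domain-containing protein 2 (ncbi_8274281) from 329.5 to 422 FPKM over the 9 libraries. Genes often used as references, whose list was added after seeing values, had wider ranges: elongation factor 1-alpha (ncbi_8280641) ran from 1504 to 4393 FPKM, tubulin alpha chain (ncbi_8268915) from 1029 to 3963 FPKM and glyceraldehyde-3-phosphate dehydrogenase (ncbi_8266350) from 5419 to 10704 FPKM. Both sets were picked or listed with values known, so the contrast between them is a description.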

How the data were processed

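RNA from root systems was extracted with Trizol and made into libraries with an mRNA kit, per the labels' protocols. No aligner, counting tool, strand setting or build was named in what was read here. The authors deposited 1 table of counts and FPKM, per the file headers. The deposited counts are expected counts (at least 98.3% whole in each library) and were rounded. Of 36 per-sample columns, 21 were not used: those of treated libraries, and the deposited FPKM of day 11, whose labels disagree. FPKM was computed here from counts scaled by TMM (factors 0.905 to 1.15) and gene lengths implied by the deposited counts and FPKM of days 3 and 7; the ratio of computed to deposited FPKM was 0.995 to 1.01 (5% and 95% quantiles).

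Genes passing edgeR's filterByExpr (minimum count 10, minimum total 15) were tested with the quasi-likelihood test, 1 mean per day (R 4.3.3, edgeR 4.0.16; alternatives DESeq2 1.42.0, limma 3.58.1), on rounded counts with Benjamini-Hochberg adjustment over all tested genes and a threshold of 0.05. Members and gene lists (by product name) were chosen with earlier results of these data known. Named are the 25 of highest mean FPKM, the 5 of smallest overall p, the most abundant member of each list, and genes said to be chosen after their values were seen. Antisense or overlapping genes and near-identical copies cannot be told apart.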

Additional observations from a re-analysis of the deposited data

How the results depend on the processing

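The count of 0 called genes in each of the 5 edgeR tests was also found with DESeq2 size factors, with library totals and without the filter. The same count came with limma on log2(FPKM + 1) and log2(FPKM + 0.1). At an edgeR adjusted p below 0.01 the count had to be 0, since no gene was below 0.05. For the trend it was also found with day as a number. With only the 6 libraries compared, 7 against 3 days and 11 against 7 days were run, again with 0 called. DESeq2 as the tool gave 67 calls in the test among days and 53 for 11 against 7 days. For the trend it gave 60 (0.385% of all tested genes), 22 of them members of the gene lists. It gave 0 for 7 against 3 days and the bend. The cause of the different counts was not tested. Leaving out each library in turn gave 0 to 2 calls in the overall test, the 2 without library 1 of day 11: a secoisolariciresinol dehydrogenase-like gene (ncbi_8259973) and a chlorophyllase-1-like gene (ncbi_8276678), both with an adjusted p of 0.0462. The other 4 tests gave 0 calls without any 1 library. With the replicate number as a block the count was 0 in all 5 tests, with 903 genes for the trend and 239 for 7 against 3 days at an unadjusted p below 0.05. Same-numbered libraries had deviations from their day means correlated between -0.54 and 0.50, and differently numbered ones between -0.53 and 0.70. The 3 pairs numbered 3 had 0.50, 0.28 and 0.19, and 3 of 9 libraries matched best with their own number. Deviations within a day cancel out, so these values cannot tell whether the numbers pair the libraries. The share of counts in the 25 most abundant genes was 11.6% and ran from 11.4% to 11.8% without any 1 library. Alternatives for single genes and gene lists were chosen after seeing the data, and list medians are given with their range above. These ranges can mix the loss of a library with a change of tested members, since the filter was applied each time. Depth limits genes of few counts, and 3 libraries a day limit the rest.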
